A study of Mus musculus with 4 samples.

Results

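HoxB is the cluster on mouse chromosome 11 that holds Hoxb1 to Hoxb9 and, farther away on the side of Hoxb9, Hoxb13. The sites described here are all CTCF and RAD21 peaks in a window of 320.0 kb on the edited chromosome 11 to which the authors aligned their libraries, from the gap between the genes Atp5g1 and Calcoco2 to the first part of Skap1 beyond Hoxb1, and the peaks in the matching flanks of a second version of chromosome 11 that lacks HoxB. There were 85 such peaks on the version with HoxB, of 198113 peaks in the 5 deposited lists, and with those of the second version they made 35 separate sites around 10 Hoxb genes. The window was chosen by position and not by peak strength.

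Gastruloids are clumps of mouse embryonic stem cells that elongate and lay down a body axis in culture, and they were collected 96 h after aggregation. CTCF was mapped by ChIPmentation, in which a transposase adds the sequencing adapters to immunoprecipitated chromatin, with 1 library each in 2 mutants, DelCBS7-10 and InsCBS5-10, and in wild type. RAD21 was mapped in InsCBS5-10. Both mutants have a HoxB deletion (Del) on 1 chromosome. On the other chromosome InsCBS5-10 carries Del(i9-13):Ins(CBS5-10), which removes the interval between Hoxb9 and Hoxb13 and puts CTCF binding sites 5 to 10 in its place, and DelCBS7-10 carries the same change followed by Del(CBS7-10), which takes sites 7 to 10 out again. Wild type has 2 copies of HoxB and each mutant has 1. The labels do not say how many clones the lines came from. The fifth list is RAD21 in wild type, and it comes with no sample record: its genotype is known only from its name, and no source used here gives its antibody or processing. It held 59484 peaks with a median width of 480 bp, against 19610 peaks with a median width of 301 bp in RAD21 of InsCBS5-10, so the 2 RAD21 lists differ in size everywhere and not only at HoxB.

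Hox genes encode homeodomain transcription factors that give cells their position along the head-to-tail axis, and in each cluster they are switched on in order, from the low-numbered genes to the high-numbered ones. CTCF is a zinc finger protein that binds a long DNA motif, and cohesin, of which RAD21 is a core subunit, is a ring complex that extrudes chromatin loops and is held at CTCF sites that face the incoming loop. Arrays of CTCF sites can therefore insulate neighbouring genes from each other. Hoxb13 is the last gene of its cluster to be activated and restrains growth of the tail bud, and the series addresses how CTCF sites insulate it.

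For each peak the authors deposited a fold enrichment, which is the summit signal over the background around it, and a −log10 q. Each fold below ranks a peak within its own list only. With 1 library per group there is no replicate spread, no difference between groups was tested, and a missing peak means that no peak was called, since read depth is unknown from these lists. Gene positions beyond the edit were placed with an estimated shift of 64.5 kb from mm10, at which 86 of 793 wild-type RAD21 summits lay within 200 bp of an annotated gene start, against at most 18 at other shifts. The other lists separated shifts less clearly. The best was 64.6 kb for CTCF in DelCBS7-10 (21 summits against 17) and 64.5 kb for CTCF in InsCBS5-10 (19 against 17). It was 64.5 kb for CTCF in wild type (33 against 19) and 62.0 kb for RAD21 in InsCBS5-10 (8 against 8).

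2 promoters in the window could be shown with their sequence, from RefSeq on GRCm38.p6. The first is an inner start of Ttll6, a tubulin polyglutamylase gene, at chr11:96133536-96133835 on the plus strand. It lies before the edit, so that positions there are those of mm10, and it carried a CTCF peak in all 3 CTCF lists and a wild-type RAD21 peak. Capitals mark the letters that read AGGNGGC on the opposite strand, a core of the CTCF motif.

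Ttll6: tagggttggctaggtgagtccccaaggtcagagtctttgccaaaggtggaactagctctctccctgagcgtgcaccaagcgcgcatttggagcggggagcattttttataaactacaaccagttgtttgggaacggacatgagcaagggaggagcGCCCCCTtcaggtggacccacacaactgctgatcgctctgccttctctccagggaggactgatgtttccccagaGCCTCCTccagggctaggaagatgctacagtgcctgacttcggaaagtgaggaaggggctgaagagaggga

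The second is the promoter of Hoxb1, the gene at the early end of the cluster, at chr11:96365508-96365807 on the plus strand. It had a wild-type RAD21 peak and no CTCF peak in any list, and holds no AGGNGGC on either strand.

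Hoxb1: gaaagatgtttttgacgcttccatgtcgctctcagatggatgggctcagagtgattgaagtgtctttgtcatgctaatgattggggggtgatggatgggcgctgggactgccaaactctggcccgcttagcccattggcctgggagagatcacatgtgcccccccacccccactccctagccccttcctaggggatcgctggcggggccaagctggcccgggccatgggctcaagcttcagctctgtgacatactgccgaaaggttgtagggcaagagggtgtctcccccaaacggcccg

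Counting from 1 at the left end of the Ttll6 sequence, the summits stood at base 200 for CTCF in DelCBS7-10, at base 149 for CTCF in InsCBS5-10, at base 164 for CTCF in wild type and at base 137 for RAD21 in wild type. The first core covers bases 156 to 162, and the centre of that core was 41, 10, 5 and 22 bases away from these summits in that order. The second core covers bases 230 to 236, with its centre 33, 84, 69 and 96 bases away, so the DelCBS7-10 summit was nearer to the second core and the other 3 to the first. The motif was chosen with these data in view, and it is common: 9643 of 32851 promoters of this length (29.4%) hold it on either strand. In the Hoxb1 sequence the wild-type RAD21 summit stood at base 130, as far as the estimated shift places it.

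RAD21 of InsCBS5-10 had 8 peaks in the HoxB window and RAD21 of wild type had 24. Of the 8 peaks of InsCBS5-10, 7 overlapped a wild-type RAD21 peak (87.5%, exact Clopper-Pearson 95% interval 47.3 to 99.7), against 94.5% of the whole InsCBS5-10 RAD21 list. In the other direction 7 of the 24 wild-type peaks were called in InsCBS5-10 (29.2%, interval 12.6 to 51.1), against 30.9% of the whole wild-type RAD21 list and 33.5% of chromosome 11 outside the window. The HoxB shares were thus near those of the whole lists in both directions. All intervals cover counting error only.

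**Figure D1:**
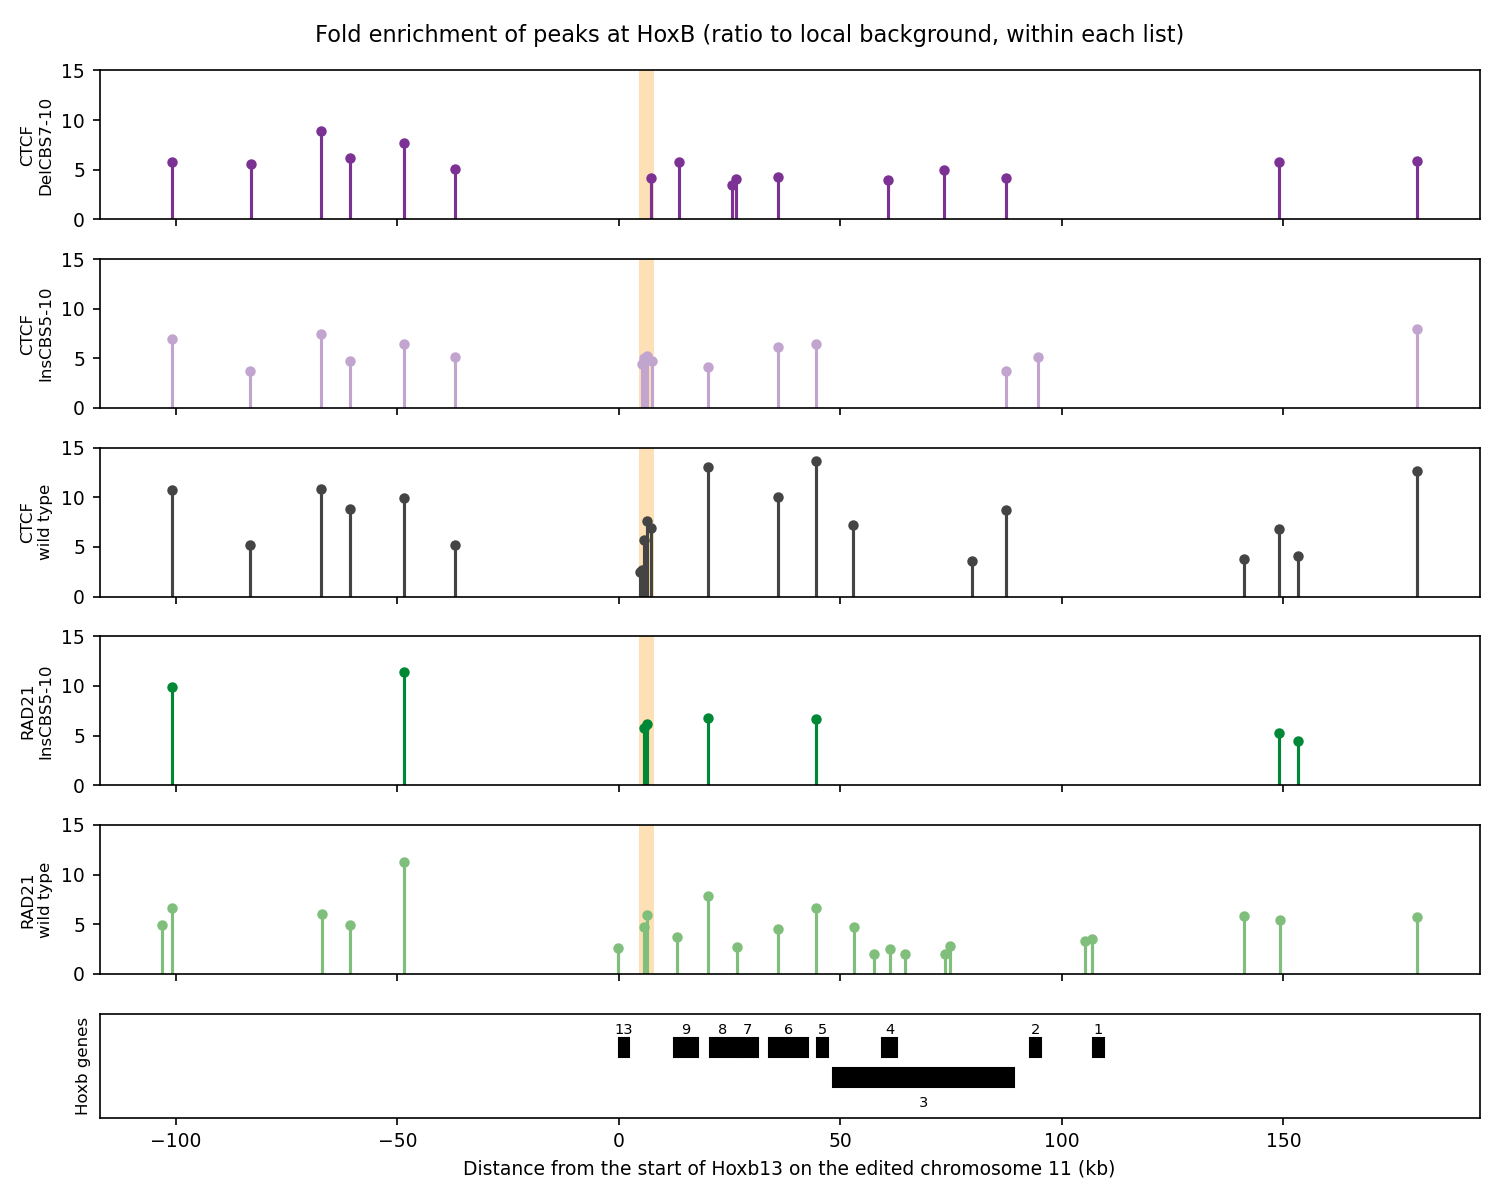
Fold enrichment (vertical axis, ratio within each list) of every CTCF and RAD21 peak on the version of chromosome 11 with HoxB, by distance of the summit from the start of Hoxb13 (horizontal axis, kb). Black bars are the Hoxb genes at their estimated places, and the orange band is the stretch between Hoxb13 and Hoxb9 that holds a group of CTCF peaks: 1 in DelCBS7-10, 4 in InsCBS5-10 and 5 in wild type. By its label DelCBS7-10 lacks CTCF binding sites CBS7-10.

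The highest RAD21 fold of the window was at the same site in both lists, within Ttll6. There RAD21 had a fold of 11.4 at 96145632 to 96146014 in InsCBS5-10 and of 11.3 at 96145524 to 96146134 in wild type. That placed the peak above 94.9% of the InsCBS5-10 list and above 98.3% of the wild-type list. The outermost shared site lay between Atp5g1, which encodes a subunit of ATP synthase, and Calcoco2, an autophagy receptor gene. Its RAD21 fold was 9.89 at 96093294 to 96093731 in InsCBS5-10 and 6.59 at 96093251 to 96093901 in wild type. These 2 flank sites were the strongest RAD21 sites of the window in InsCBS5-10, whereas in wild type the sites just before Hoxb8 and Hoxb5 stood between them in rank.

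On the version with HoxB, 3 further flank sites before Hoxb13 had a RAD21 peak in wild type and none in InsCBS5-10. At 96091173 to 96091596, between Atp5g1 and Calcoco2, the wild-type RAD21 fold was 4.91 and no CTCF list had a peak. At 96127122 to 96127616, within Ttll6, it was 5.99. At the inner start of Ttll6 shown above, from 96133568 to 96133794, it was 4.93. The last 2 of these carried CTCF in all 3 CTCF lists, with folds of 8.94 and 6.22 in DelCBS7-10, 7.47 and 4.76 in InsCBS5-10, and 10.8 and 8.8 in wild type. CTCF of InsCBS5-10 was thus called at both although RAD21 of InsCBS5-10 was not. 2 more flank sites, within Calcoco2 and near the end of Ttll6, had CTCF in all 3 CTCF lists and no RAD21 on this version, with CTCF folds of 5.57 and 5.08 in DelCBS7-10, 3.77 and 5.15 in InsCBS5-10, and 5.19 at both in wild type.

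The stretch between Hoxb13 and Hoxb9 holds what remains of, or was inserted into, the interval that the study edits. CTCF had 1 peak there in DelCBS7-10, 4 in InsCBS5-10 and 5 in wild type. Wild-type reads from sequence that the edited chromosome lacks could not be placed there. RAD21 was called at the same 2 middle CTCF sites in both RAD21 lists. At the first of these the RAD21 fold was 5.75 at 96199955 to 96200179 in InsCBS5-10 and 4.73 at 96199967 to 96200193 in wild type, over CTCF folds of 5.01 in InsCBS5-10 and 5.7 in wild type. At the second the RAD21 fold was 6.2 at 96200572 to 96200753 in InsCBS5-10 and 5.96 at 96200473 to 96200825 in wild type, over CTCF folds of 5.21 in InsCBS5-10 and 7.61 in wild type. DelCBS7-10 had no CTCF peak at either.

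The CTCF site of that stretch nearest to Hoxb9 was called in all 3 CTCF lists and had no RAD21 peak in either RAD21 list. Its CTCF fold was 4.19 at 96201498 to 96202052 in DelCBS7-10, 4.71 at 96201619 to 96201812 in InsCBS5-10 and 6.96 at 96201521 to 96201832 in wild type. In wild type its CTCF fold stood between the 5.7 and 7.61 of the 2 sites that carried RAD21. The 2 sites nearest to Hoxb13 had the lowest CTCF folds of the stretch and no RAD21. One, at 96199499 to 96199703, had a CTCF fold of 4.43 in InsCBS5-10 and 2.68 in wild type, where it was called at 96199505 to 96199711. The other, at 96198946 to 96199099, was called for CTCF in wild type only, with a fold of 2.46.

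**Figure D2:**
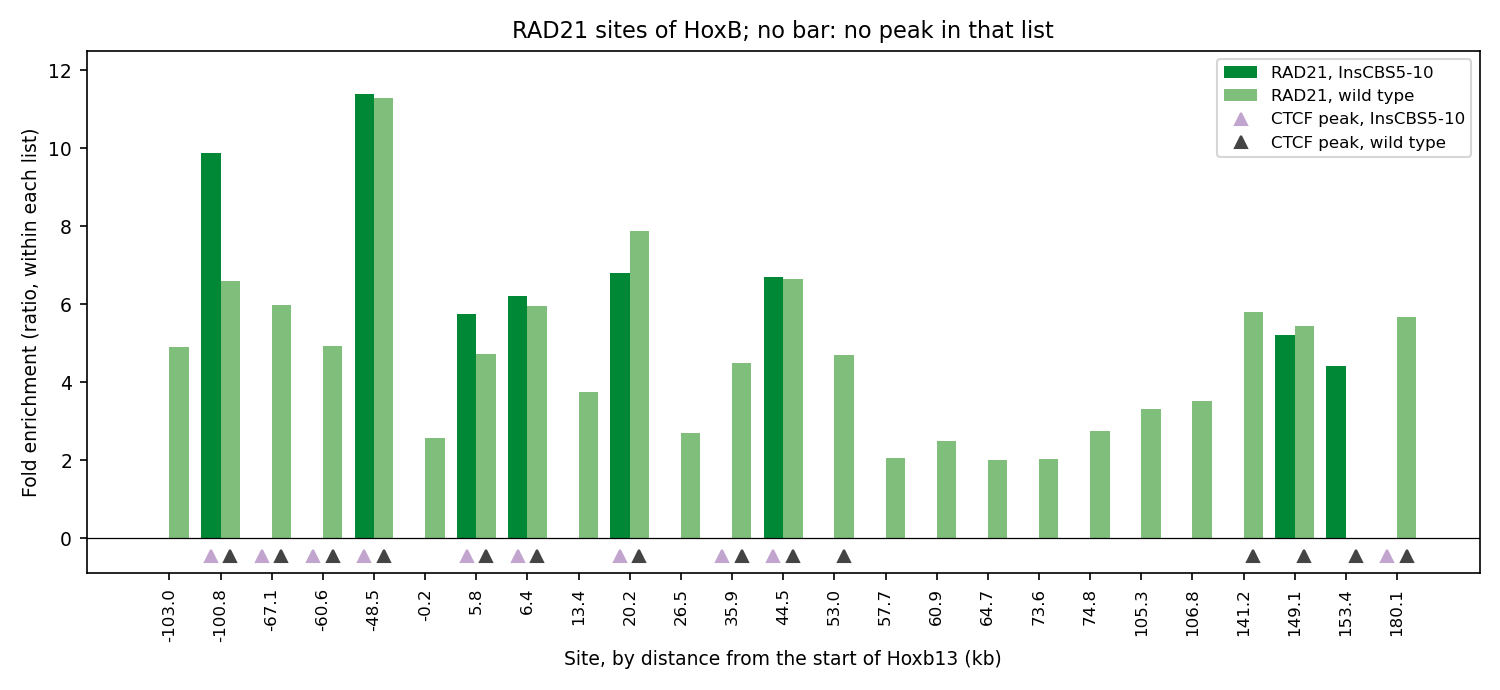
Fold enrichment (vertical axis, ratio within each list) of RAD21 at every HoxB site with a RAD21 peak in either list, ordered by distance from the start of Hoxb13 (horizontal axis, kb). Dark bars are InsCBS5-10 and light bars wild type, and triangles mark sites that also have a CTCF peak of the same genotype: 7 sites have both bars, 17 have only the light bar and 1 has only the dark bar.

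Within the cluster, from Hoxb9 to Hoxb1, RAD21 of InsCBS5-10 had 2 peaks and RAD21 of wild type had 13. Both peaks of InsCBS5-10 lay at gene starts and were also called in wild type. The first was just before Hoxb8, with its summit at −0.41 kb from the start in InsCBS5-10 (96214337 to 96214743, fold 6.8) and at −0.43 kb in wild type (96214133 to 96214820, fold 7.87). The second was just before Hoxb5, at −0.19 kb from the start in InsCBS5-10 (96238725 to 96238908, fold 6.7) and at −0.20 kb in wild type (96238441 to 96239237, fold 6.66). Both sites also carried CTCF. At Hoxb8 the CTCF fold was 4.12 in InsCBS5-10 and 13.1 in wild type, and at Hoxb5 it was 6.44 in InsCBS5-10 and 13.7 in wild type. DelCBS7-10 had no CTCF peak at either site. In wild type these 2 CTCF peaks were the highest of the window, at ranks 2237 and 1729 of the 47931 peaks of the list.

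2 further wild-type RAD21 peaks of the cluster lay on wild-type CTCF. One was within Hoxb6, at 96229775 to 96230551 with a RAD21 fold of 4.49, where CTCF was called in all 3 lists with folds of 4.28 in DelCBS7-10, 6.17 in InsCBS5-10 and 9.99 in wild type. The other was within Hoxb3, at 96247020 to 96247804 with a RAD21 fold of 4.69, over a CTCF fold of 7.24 in wild type and no CTCF peak in either mutant list. The Hoxb6 site thus had CTCF and no RAD21 peak in InsCBS5-10.

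The remaining 9 wild-type RAD21 peaks of the cluster had no wild-type CTCF peak, and their folds were lower: 2.0 to 3.75 with a median of 2.69, against 4.49 to 7.87 with a median of 5.68 for the 4 with CTCF. The whole wild-type RAD21 list shows the same order, with a median of 3.36 without CTCF and 5.9 with it. The highest of the 9 was within Hoxb9, at 96207463 to 96207848 (fold 3.75), and the next was at the Hoxb1 promoter, at 96300962 to 96301423 (fold 3.53). Another lay between Hoxb2 and Hoxb1, at 96299465 to 96299764 (fold 3.31). Within Hoxb3, the longest gene of the cluster, there were 5, from 96251832 to 96269256, with folds of 2.05, 2.5, 2.0, 2.02 and 2.76 in order of position. The 1 not yet named was at the start of Hoxb7, at 96220711 to 96221097 (fold 2.69). None of the 9 had a RAD21 peak in InsCBS5-10. Of all 13 wild-type RAD21 peaks of the cluster, 2 were called in InsCBS5-10 (15.4%, interval 1.92 to 45.4). The share of the whole wild-type RAD21 list was 30.9%, and that of its peaks without CTCF was not counted.

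Counted over zones, wild-type RAD21 lay on wild-type CTCF at 4 of 5 peaks before Hoxb13, 2 of 3 from Hoxb13 to Hoxb9, 4 of 13 from Hoxb9 to Hoxb1 (30.8%, interval 9.09 to 61.4) and 3 of 3 beyond Hoxb1. The zone from Hoxb13 to Hoxb9 includes here a peak without CTCF just before Hoxb13, with its summit at −0.24 kb from the start. The total of 13 of 24 (54.2%) compares with 54.6% of the whole list and 65.0% of chromosome 11 outside the window. Of the 8 RAD21 peaks of InsCBS5-10, 6 lay on CTCF of InsCBS5-10 (75.0%, interval 34.9 to 96.8), against 84.8% of its whole list. The 2 that did not were both beyond Hoxb1.

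Looked at from the CTCF side, 6 of 16 CTCF peaks of InsCBS5-10 carried RAD21 of InsCBS5-10 (37.5%, interval 15.2 to 64.6), against 48.2% of the whole list and 40.6% of chromosome 11 outside the window. In wild type 13 of 21 CTCF peaks carried RAD21 (61.9%, interval 38.4 to 81.9), against 68.7% of the whole list and 72.5% of chromosome 11 outside the window. A CTCF site within Hoxb3 was called in all 3 CTCF lists, with folds of 4.19 in DelCBS7-10, 3.77 in InsCBS5-10 and 8.72 in wild type (96281557 to 96281887), and had no RAD21 peak in either list. Where both proteins were called their summits nearly coincided. The distance was 3 to 32 bp with a median of 9.5 bp at the 6 sites of InsCBS5-10, and 2 to 119 bp with a median of 10 bp at the 13 sites of wild type, while medians over the rest of chromosome 11 were 26 bp in InsCBS5-10 and 24 bp in wild type.

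Taking the 10 Hoxb genes by their starts, a summit within 1 kb was called for 1 gene by CTCF in DelCBS7-10, 2 by CTCF in InsCBS5-10, 2 by CTCF in wild type, 2 by RAD21 in InsCBS5-10 and 6 by RAD21 in wild type. The same count over 16221 protein-coding genes off chromosome 11 gave 11.6% for CTCF in DelCBS7-10, 9.29% for CTCF in InsCBS5-10, 14.8% for CTCF in wild type, 3.91% for RAD21 in InsCBS5-10 and 43.7% for RAD21 in wild type. The 6 genes of wild-type RAD21 were Hoxb13, Hoxb9, Hoxb8, Hoxb7, Hoxb5 and Hoxb1. Hoxb8 and Hoxb5 were also the genes with CTCF in InsCBS5-10, CTCF in wild type and RAD21 in InsCBS5-10. The single gene of CTCF in DelCBS7-10 was Hoxb7, with the summit at −0.44 kb from its start and a fold of 4.05. At Hoxb13 itself the only summit within 1 kb was that of wild-type RAD21, at −0.24 kb from the start, in a peak at 96194032 to 96194211, with a fold of 2.56, above only 4.7% of its list. No list had a summit within 1 kb of the starts of Hoxb6, Hoxb4, Hoxb3 or Hoxb2. Each start counted here is the outer end of the annotated gene, and inner starts were not examined.

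Between the CTCF lists, 10 of 16 DelCBS7-10 peaks were called in InsCBS5-10 (62.5%, interval 35.4 to 84.8), against 77.7% of the whole list. They comprised all 6 before Hoxb13, the 1 between Hoxb13 and Hoxb9, 2 of 7 in the cluster and 1 of 2 beyond Hoxb1. Of the 16 InsCBS5-10 peaks, 15 were called in wild type (93.8%, interval 69.8 to 99.8), against 87.7% of the whole list. The exception was within Hoxb2, at 96288522 to 96289187, with a fold of 5.15. Among the 5 cluster peaks that CTCF of DelCBS7-10 had alone, 4 overlapped a wild-type RAD21 peak (interval 28.4 to 99.5%), against 19.6% of such peaks in the whole list. They lay within Hoxb9 (96207494 to 96207979, fold 5.8), at the start of Hoxb7 (96220592 to 96220803, fold 4.05), over Hoxb4 (96254798 to 96255643, fold 3.98) and within Hoxb3 (96267593 to 96268135, fold 4.93). The fifth peak, within Hoxb8 (96219718 to 96219914, fold 3.46), had no RAD21 peak. At the 4 others the wild-type RAD21 summits were 305, 323, 497 and 191 bp away in that order, farther apart than at the 13 HoxB sites with both proteins in wild type, although such distances ran up to 798 bp over the rest of chromosome 11. The count therefore depended on how overlap was defined: 2 of 5 when 50% of both peaks had to overlap, and 1 of 5 when summits had to lie within 200 bp, against 6.43% and 14.1% of such peaks in the whole list. This result was singled out after the values were seen, so its interval is no test against the share of the whole list. CTCF peaks were also more numerous in DelCBS7-10 than in InsCBS5-10 at HoxA, HoxC and HoxD, as counted below.

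Beyond Hoxb1, on the side of Skap1, an adaptor gene of T cells, RAD21 of InsCBS5-10 had 2 peaks and RAD21 of wild type had 3, with 1 site in common. At the common site the RAD21 fold was 5.22 at 96343303 to 96343512 in InsCBS5-10 and 5.43 at 96343089 to 96343662 in wild type. CTCF was called there in DelCBS7-10 (fold 5.75) and wild type (fold 6.77) but not in InsCBS5-10. The second site of InsCBS5-10, at 96347581 to 96347761 with a fold of 4.41, was the only RAD21 peak of InsCBS5-10 in the window without a wild-type RAD21 peak, and CTCF was called there in wild type with a fold of 4.06. The other wild-type RAD21 peaks were at 96335155 to 96335803 (fold 5.81), where CTCF was called in wild type with a fold of 3.83, and at 96374143 to 96374601 (fold 5.68). The last of these had CTCF in all 3 lists, at folds of 5.86 in DelCBS7-10, 7.95 in InsCBS5-10 and 12.7 in wild type.

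The flanks occur with the same sequence on both versions of chromosome 11, offset by 110.1 kb beyond the edit. Wild-type lists also had peaks on the version without HoxB, a chromosome that wild type does not carry, so the version of a flank peak does not show which chromosome it came from. Of the flank peaks on the version with HoxB, the share also called on the version without it was 8 of 8 for CTCF in DelCBS7-10, 6 of 7 for CTCF in InsCBS5-10, 10 of 10 for CTCF in wild type, 3 of 4 for RAD21 in InsCBS5-10 and 8 of 8 for RAD21 in wild type. Over all shared sequence of chromosome 11 the shares were 83.6%, 84.5%, 91.5%, 84.7% and 83.2% in that order of lists. Peaks that were found on the other version had higher folds than those that were not, with medians of 7.3 and 4.87 for RAD21 in InsCBS5-10 and 5.46 and 3.38 for RAD21 in wild type.

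**Figure D3:**
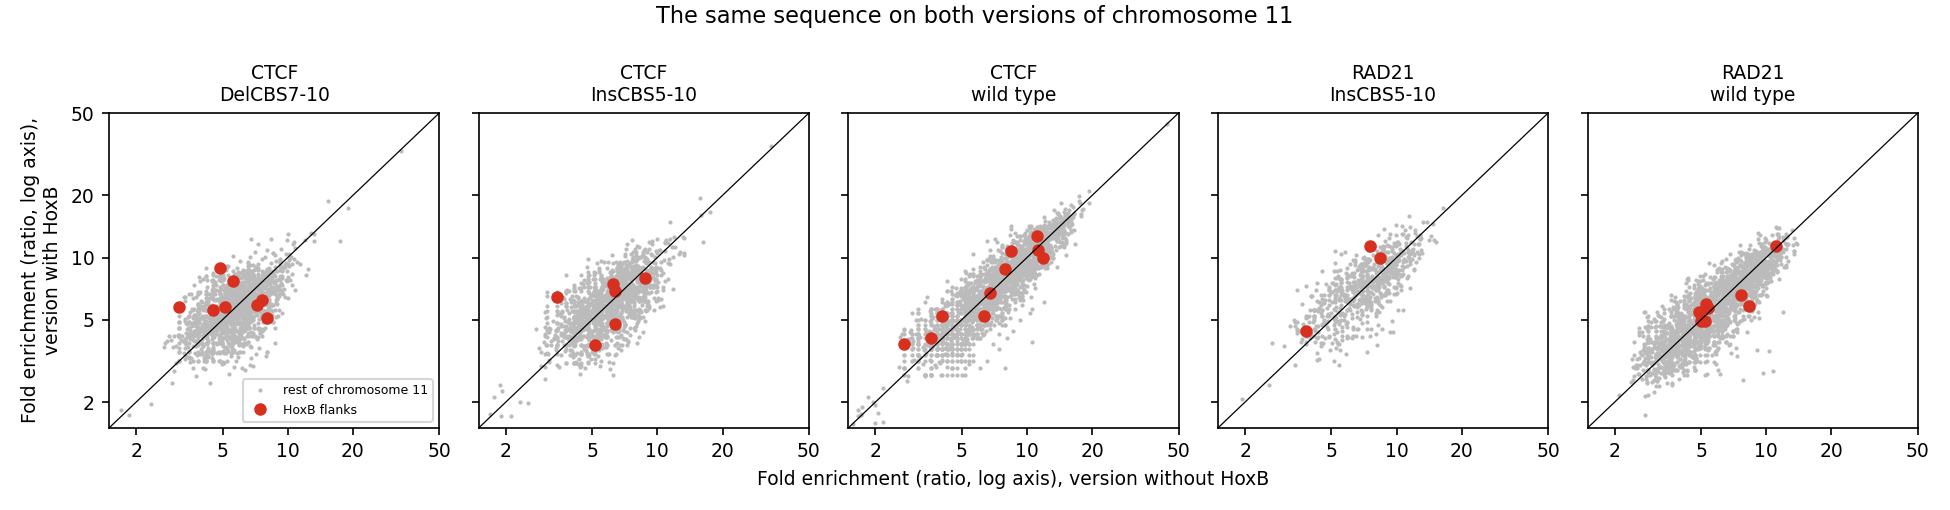
Fold enrichment of peaks called at the same sequence on both versions of chromosome 11, the version with HoxB on the vertical axis and the version without it on the horizontal axis (ratios, both axes logarithmic), 1 panel per list. Large points are the HoxB flanks and small points the rest of the chromosome; the line marks equal folds, and the larger fold over the smaller was in the flanks at most 1.83 for CTCF of DelCBS7-10, 1.87 for CTCF of InsCBS5-10, 1.42 for CTCF of wild type, 1.51 for RAD21 of InsCBS5-10 and 1.43 for RAD21 of wild type.

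2 flank sites, both before Hoxb13, were called in all 5 lists on both versions. At the site between Atp5g1 and Calcoco2 the folds on the version with HoxB and the version without it were 9.89 and 8.35 for RAD21 of InsCBS5-10, and 6.59 and 7.67 for RAD21 of wild type. At the strongest site, within Ttll6, they were 11.4 and 7.56 for RAD21 of InsCBS5-10, and 11.3 and 11.1 for RAD21 of wild type. CTCF at that site had folds of 7.68 and 5.58 in DelCBS7-10, 6.41 and 3.43 in InsCBS5-10, and 9.93 and 11.9 in wild type. The same sequence in the same library could thus differ by a ratio of 1.51 for RAD21 of InsCBS5-10, and the largest ratio in the flanks was 1.87, for CTCF of InsCBS5-10 at this site.

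Across chromosome 11 the larger fold over the smaller had a median of 1.19 for CTCF in DelCBS7-10, 1.18 for CTCF in InsCBS5-10, 1.14 for CTCF in wild type, 1.17 for RAD21 in InsCBS5-10 and 1.15 for RAD21 in wild type. The flank medians were 1.3, 1.26, 1.17, 1.18 and 1.08 in that order of lists. Over the chromosome 1 pair in 10 had a ratio above 1.53, 1.53, 1.4, 1.45 and 1.44 in the same order. The largest flank ratios were 1.83, 1.87, 1.42, 1.51 and 1.43, among 8, 6, 10, 3 and 8 pairs. The largest of so few pairs cannot show whether the flanks vary more than the rest of the chromosome. These ratios compare 2 values of 1 sequence within 1 library and are no replicate error.

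Some calls above changed when both versions were read together. At the site beyond Hoxb1 where InsCBS5-10 RAD21 was the sole RAD21 peak, CTCF was called on the version without HoxB in DelCBS7-10 (fold 6.88), InsCBS5-10 (fold 3.77) and wild type (fold 3.61), so that site had CTCF of its own genotype on that version. At the last site beyond Hoxb1, RAD21 of InsCBS5-10 was called on the version without HoxB only, with a fold of 4.87, against wild-type folds of 5.68 with HoxB and 5.4 without it. The common RAD21 site beyond Hoxb1 showed the opposite for InsCBS5-10, with a peak of fold 5.22 on the version with HoxB and none on the version without it. The flank site between Atp5g1 and Calcoco2 that had RAD21 and no CTCF on the version with HoxB had a wild-type CTCF peak of fold 5.51 on the version without HoxB. Wild-type RAD21 was called on that version alone at the CTCF site within Calcoco2 (96111123 to 96111479, fold 3.64) and at 96160583 to 96160778 (fold 3.12), where no CTCF list had a peak.

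When a call on either version counted, sites called in all 5 lists were 2 before Hoxb13 and 1 beyond Hoxb1, against 2 and 0 on the version with HoxB alone. Sites with RAD21 in both RAD21 lists were then 2 before Hoxb13 and 2 beyond Hoxb1, against 2 and 1. Wild-type RAD21 peaks called in InsCBS5-10 became 8 of 24, and RAD21 peaks of InsCBS5-10 with CTCF of InsCBS5-10 became 7 of 8. Shares of the whole lists were not counted under this rule, so these counts have no background beside them. At the Ttll6 start shown above, RAD21 of wild type had folds of 4.93 with HoxB and 5.19 without it, and RAD21 of InsCBS5-10 had no peak on either version. The neighbouring Ttll6 site behaved alike, with wild-type RAD21 folds of 5.99 with HoxB and 5.25 without it and no RAD21 peak of InsCBS5-10.

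A peak's −log10 q depends on its fold and on the number of reads behind it, so peaks within 1 band of folds were compared. Among wild-type RAD21 peaks with folds between 4 and 8, the median −log10 q was 29.8 for the 6 peaks from Hoxb13 to Hoxb1 and 13.1 for the 7 peaks of the flanks. It was 10.9 over the rest of chromosome 11, 13.4 on other chromosomes and 22.6 for the 11 peaks at other Hox clusters. In RAD21 of InsCBS5-10 the same medians were 10.4 for 4 peaks from Hoxb13 to Hoxb1, 4.88 for 2 flank peaks, 9.11 over the rest of chromosome 11, 10.4 on other chromosomes and 16.2 for 5 peaks at other Hox clusters.

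The median folds of these RAD21 peaks from Hoxb13 to Hoxb1 were close to those of the rest of chromosome 11, at 6.45 and 6.14 in InsCBS5-10 and at 5.34 and 5.45 in wild type. In the CTCF lists the same band did not hold the fold alike: the median fold from Hoxb13 to Hoxb1 and that of the rest of chromosome 11 were 4.23 and 5.58 in DelCBS7-10, 5.08 and 5.72 in InsCBS5-10, and 7.1 and 5.64 in wild type. The median −log10 q of CTCF peaks differed in the same directions as the fold. From Hoxb13 to Hoxb1 it was 4.28 in DelCBS7-10 (6 peaks), 8.24 in InsCBS5-10 (8 peaks) and 38.9 in wild type (4 peaks). Over the rest of chromosome 11 it was 7.8 in DelCBS7-10, 8.48 in InsCBS5-10 and 11.6 in wild type. In the flanks it was 8.77 in DelCBS7-10, 11.4 in InsCBS5-10 and 8.85 in wild type, and at other Hox clusters 11.8 in DelCBS7-10, 10.3 in InsCBS5-10 and 17.9 in wild type. Wild type has 2 copies of HoxB and the mutants have 1, so fewer copies and less binding per copy cannot be told apart in the counts of peaks called between Hoxb13 and Hoxb1, nor in their q values. The flanks and the rest of chromosome 11 also occur on both versions of the chromosome, while HoxB itself occurs on 1 only. How reads were placed between the versions is unknown, and its effect on q was not tested.

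**Figure D4:**
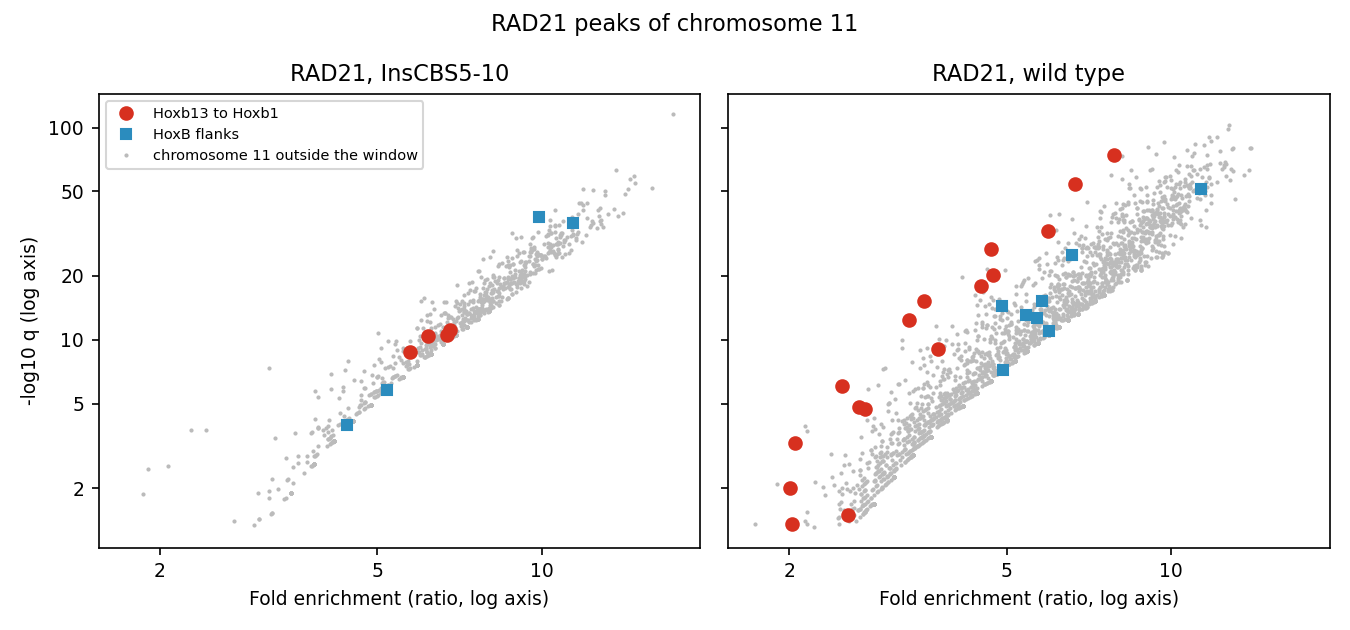
The −log10 q (vertical axis) against fold enrichment (horizontal axis, ratio) of RAD21 peaks of chromosome 11 in InsCBS5-10 (left) and wild type (right), both axes logarithmic. Large circles are peaks from Hoxb13 to Hoxb1, squares the HoxB flanks and small points the rest of the chromosome. At folds of 4 to 8 the median in wild type was 29.8 for 6 circles, against 10.9 for the rest of the chromosome. In InsCBS5-10 it was 10.4 for 4 circles, against 9.11. Circles with folds below 4 were not compared. Squares and small points stand for sequence on both versions of chromosome 11, circles for sequence on 1 only.

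The other 3 Hox clusters, which no genotype label names as edited, were counted in windows with 100 kb on each side. RAD21 of InsCBS5-10 had 8 peaks at HoxB, 4 at HoxA, 5 at HoxC and 6 at HoxD, and RAD21 of wild type had 24 at HoxB, 30 at HoxA, 23 at HoxC and 21 at HoxD. Each InsCBS5-10 RAD21 peak of the other 3 windows was also called in wild type. Wild-type RAD21 peaks called in InsCBS5-10 made up 7 of 24 at HoxB (29.2%), 4 of 30 at HoxA (13.3%), 5 of 23 at HoxC (21.7%) and 6 of 21 at HoxD (28.6%). More RAD21 peaks in the wild-type list than in that of InsCBS5-10 were thus seen at all 4 clusters, the 3 unedited ones included. CTCF peaks of DelCBS7-10 and InsCBS5-10 numbered 16 and 16 at HoxB, 13 and 7 at HoxA, 15 and 9 at HoxC, and 10 and 5 at HoxD. CTCF of wild type had 21 at HoxB, 10 at HoxA, 7 at HoxC and 10 at HoxD. More CTCF peaks in DelCBS7-10 than in InsCBS5-10 were thus seen at the 3 unedited clusters. The whole CTCF lists held 36589 peaks in DelCBS7-10, 34499 in InsCBS5-10 and 47931 in wild type. Wild-type RAD21 peaks on wild-type CTCF made up 13 of 24 at HoxB (54.2%), 9 of 30 at HoxA (30.0%), 6 of 23 at HoxC (26.1%) and 8 of 21 at HoxD (38.1%). The highest RAD21 fold in InsCBS5-10 was 11.4 at HoxB, 12.1 at HoxA, 13.6 at HoxC and 13.4 at HoxD. In wild type it was 11.3 at HoxB, 9.88 at HoxA, 10.4 at HoxC and 9.18 at HoxD. Both HoxB values are those of the flank site within Ttll6, and from Hoxb13 to Hoxb1 the highest RAD21 fold was 6.8 in InsCBS5-10 and 7.87 in wild type.

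**Figure D5:**
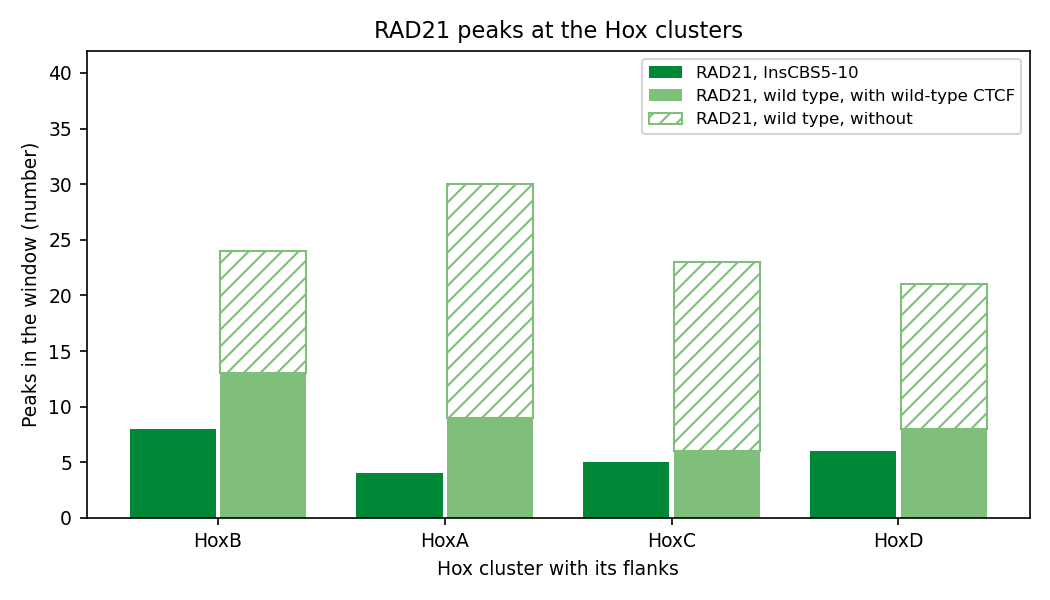
Number of RAD21 peaks (vertical axis) in the windows of the 4 Hox clusters (horizontal axis). Dark bars are InsCBS5-10 and light bars wild type, split into peaks with wild-type CTCF (filled) and without (hatched): at HoxB 8 peaks in InsCBS5-10 and 24 in wild type, 13 of them with CTCF.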

How the data were processed

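The authors deposited 5 MACS2 narrowPeak lists. Per the submitters' processing notes, MACS2 2.2.7.1, cutadapt 4.1 and mm10 were used for the 4 lists with a sample; aligner, control, peak options and the handling of reads that fit both versions of chromosome 11 were not given in any source used here. The deposited score is 10 times the −log10 q, and the deposited fold enrichment is a ratio within 1 library. The authors' −log10 p and q also belong to 1 library each, and their lowest −log10 q, 1.3 in all lists, equals a q of 0.05.

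From these lists, summits that shared an interval were merged, chromosomes 1 to 19, X and Y were kept, and peaks were called shared when they overlapped by 1 bp or more (Python 3.11.15, pandas 2.3.3, scipy 1.17.1). Shared sequence of the 2 versions was matched with an offset of 110082 bp. The steps were tested on simulated peaks. Alternatives were a 50% overlap, summits within 200 bp, a −log10 q of 5 or more, a wider window and unmerged summits. Genes named were Hoxb1 to Hoxb9, Hoxb13 and flank genes by position, with values in full for sites with RAD21 and sites between Hoxb13 and Hoxb9. Members and lists were chosen with earlier results of these data known.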

Additional observations from a re-analysis of the deposited data

How the results depend on the processing

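Of 71 values recomputed under an alternative, 67 stayed within 1.5 times the main count. With peaks of −log10 q of 5 or more, DelCBS7-10 CTCF peaks called in InsCBS5-10 were 6 of 10, against 10 of 16; fewer peaks were counted by construction. Of the CTCF peaks of DelCBS7-10 alone, 4 of 5 lay on wild-type RAD21. The count fell to 2 with a 50% overlap and to 1 with summits within 200 bp. At −log10 q of 5 or more it was 1 of 2, against 22.8% of such peaks in the whole list. These alternatives for this result, and searching either version of chromosome 11, were chosen after seeing the data. The comparison of the 2 RAD21 lists kept its counts within that range under every alternative run. With a 50% overlap, 5 of 8 RAD21 peaks of InsCBS5-10 (62.5%) were called in wild type. In the other direction 5 of 24 (20.8%) were called. At −log10 q of 5 or more, 7 of 18 wild-type peaks were called in InsCBS5-10. For these RAD21 counts and for the 6 of 10 above, whole-list shares under the same alternatives were not counted. No paired analysis was possible because there was 1 library per group and no test was made. Read depth is unknown from these lists, so a missing peak is a missing call.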

Other observations

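On the version of chromosome 11 without HoxB, RAD21 of wild type had 2 peaks near the junction of the deletion, at 96194284 to 96195126 with a fold of 3.58 and a −log10 q of 6.11, and at 96195983 to 96196228 with a fold of 2.25 and a −log10 q of 1.36. To which side of the junction they belong cannot be told from the lists.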
